A study of Mus musculus with 6 samples.

Results

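The genes described here make or consume nicotinamide adenine dinucleotide (NAD). They are 9 of the 38124 genes in the deposited table, taken by symbol: Nampt, Nmnat1, Nmnat3, Nadsyn1 and Qprt on the synthesis side, and Bst1, Cd38, Parp1 and Sirt1 on the consumption side. The set was chosen around the higher level of Bst1 in these same libraries. The comparison of the groups therefore chose the set, and its differences are given as a description, with no test on the members. Poly(A) RNA was sequenced from macrophages grown in culture from bone marrow of wild-type C57BL mice, with 3 libraries in each of 2 groups, each a biological replicate per the series' design text. Treated macrophages had been kept for 24 hr with apoptotic thymocytes at a ratio given as 1:40. Untreated macrophages had received none. The thymocytes had been killed with dexamethasone, a synthetic glucocorticoid, and were taken off before RNA was extracted. No group given dexamethasone alone or live thymocytes was analysed here, so uptake of dying cells and carried-over glucocorticoid cannot be told apart here.

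NAD is the electron carrier of central metabolism and also a substrate that several enzyme families break down, each time releasing nicotinamide. Most cells rebuild NAD from that nicotinamide through the salvage route, while tryptophan (through quinolinic acid) and nicotinic acid feed the other routes. In macrophages, synthesis and breakdown of NAD are known to shift with activation, and the ectoenzymes of the Bst1 and Cd38 pair cleave NAD and its precursors outside the cell.

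The promoters of the 4 members with a RefSeq entry whose levels did not overlap between the groups are printed first, because these genes carry the differences described below. They come from the RefSeq table of GRCm38.p6 and span 250 bases before to 50 bases after the annotated start, written 5′ to 3′ on the strand of the gene. That table held 8 of the 9 members and had no entry for Bst1, so the Bst1 promoter was not searched. The windows lie at chr12:32820085-32820384 on the plus strand for Nampt, chr5:43868559-43868858 on the plus strand for Cd38, chr1:180568641-180568940 on the plus strand for Parp1 and chr10:63338986-63339285 on the minus strand for Sirt1. The RefSeq start of Sirt1 lies 42669 bp inside the span that the deposited table gives for the gene. Capitals mark matches to the motifs searched.
Nampt: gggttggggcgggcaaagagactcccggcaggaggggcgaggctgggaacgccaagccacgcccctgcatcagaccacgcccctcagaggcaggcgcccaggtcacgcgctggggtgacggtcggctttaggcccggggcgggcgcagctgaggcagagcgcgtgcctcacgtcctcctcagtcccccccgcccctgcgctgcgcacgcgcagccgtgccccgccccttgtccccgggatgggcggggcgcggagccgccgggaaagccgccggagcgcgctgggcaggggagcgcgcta
Cd38: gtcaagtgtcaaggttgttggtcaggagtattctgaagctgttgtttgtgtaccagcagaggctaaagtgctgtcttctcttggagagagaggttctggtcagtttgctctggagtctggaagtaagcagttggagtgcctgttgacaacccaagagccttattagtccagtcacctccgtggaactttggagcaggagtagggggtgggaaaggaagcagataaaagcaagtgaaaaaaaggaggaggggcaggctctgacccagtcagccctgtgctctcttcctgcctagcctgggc
Parp1: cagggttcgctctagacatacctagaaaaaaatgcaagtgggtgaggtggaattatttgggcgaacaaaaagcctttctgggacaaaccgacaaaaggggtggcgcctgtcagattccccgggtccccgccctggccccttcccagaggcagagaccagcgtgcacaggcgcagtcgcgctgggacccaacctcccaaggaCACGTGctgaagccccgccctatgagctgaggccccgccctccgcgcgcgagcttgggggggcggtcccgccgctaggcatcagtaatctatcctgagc
Sirt1: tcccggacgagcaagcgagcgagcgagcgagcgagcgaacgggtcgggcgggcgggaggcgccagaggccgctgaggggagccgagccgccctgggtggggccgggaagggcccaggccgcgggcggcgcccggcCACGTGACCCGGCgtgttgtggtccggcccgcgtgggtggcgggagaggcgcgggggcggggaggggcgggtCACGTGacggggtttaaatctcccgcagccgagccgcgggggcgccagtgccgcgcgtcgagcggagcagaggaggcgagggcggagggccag
The motifs searched, on both strands, were AGAACA (a half-site of the glucocorticoid receptor), TGACNNNGC (the core of the antioxidant response element) and CACGTG (an E-box). Of the 32851 promoters of the same length, 19.0% held AGAACA, 12.4% held TGACNNNGC and 7.15% held CACGTG. The Parp1 window had 1 CACGTG. The Sirt1 window had 2 CACGTG, and 1 TGACNNNGC that overlapped the first of them. The Nampt and Cd38 windows held none of these letters. Among the members not printed, the Nmnat3 and Qprt windows each held 1 TGACNNNGC. No window of the 8 members searched held AGAACA, and Bst1 was not among them. The windows also differed in base composition. The Cd38 window had 1 CpG and 51.7% G and C, where the medians over all promoters were 7 CpG and 52.7%. The Nampt, Parp1 and Sirt1 windows had 36, 20 and 47 CpG, and 76.3%, 62.0% and 79.0% G and C. A match of letters is a description of the window and not a measured binding site.

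Levels are RPKM, reads scaled to gene length and to the mapped reads of the library, so that they can be compared between genes. Depth was 22782450 to 25933208 mapped reads in the treated libraries and 19315132 to 23907256 in the untreated libraries, and 1 read on a 1 kb gene was worth 0.0386 to 0.0518 RPKM. Each difference is the treated mean of log2(RPKM + 1) less the untreated mean; adding 1 shrinks the differences of genes near or under 1 RPKM. A gene passed the test at a limma adjusted p under 0.05 (Benjamini-Hochberg over the 10173 genes with at least 1 RPKM in at least 3 libraries). By that test 18.8% of tested genes were higher and 46.0% lower, and the median difference was −0.13, so that a gene level with the typical gene sits slightly under 0. When libraries were scaled by median of ratios instead, the median difference was 0.02. All 8 macrophage marker genes were above 1 RPKM in both groups, but their levels differed: the treated range lay above the untreated one for Lyz2 and Mertk and below it for the other 6. Lyz2 averaged 19419 RPKM in treated and 13388 RPKM in untreated macrophages, and Mertk 94.98 RPKM in treated and 21.9 RPKM in untreated macrophages. Fcgr1 averaged 7.43 RPKM in treated and 52.7 RPKM in untreated macrophages, Itgam 33.1 RPKM in treated and 119 RPKM in untreated, and Cd14 50.5 RPKM in treated and 199.97 RPKM in untreated. Csf1r, Cd68 and Adgre1 averaged 359, 1144 and 309 RPKM in treated and 536, 1274 and 338 RPKM in untreated macrophages. Of 16 thymocyte and T cell markers, 5 were at 0 in every library (Cd3e, Cd8b1, Rag2, Ptcra and Themis), and the list summed to 2.25 to 2.91 RPKM in treated and 5.68 to 6.19 RPKM in untreated libraries, most of it Cd4. In bulk RNA, fewer cells of a type and less RNA per cell cannot be told apart.

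Of the 9 members, 8 reached 1 RPKM in at least 3 libraries, Bst1 and Cd38 only through the treated ones, so that those genes had to differ. The treated range lay above the untreated range for Bst1, Cd38 and Nampt and below it for Parp1 and Sirt1, and the ranges overlapped for Nmnat1, Nmnat3 and Nadsyn1. Over all tested genes the treated range lay above in 20.4% and below in 49.1%. Nothing is read from the members' counts, since this contrast chose the genes. The values by library and the positions of the members among all tested genes are plotted.

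**Figure D1:**
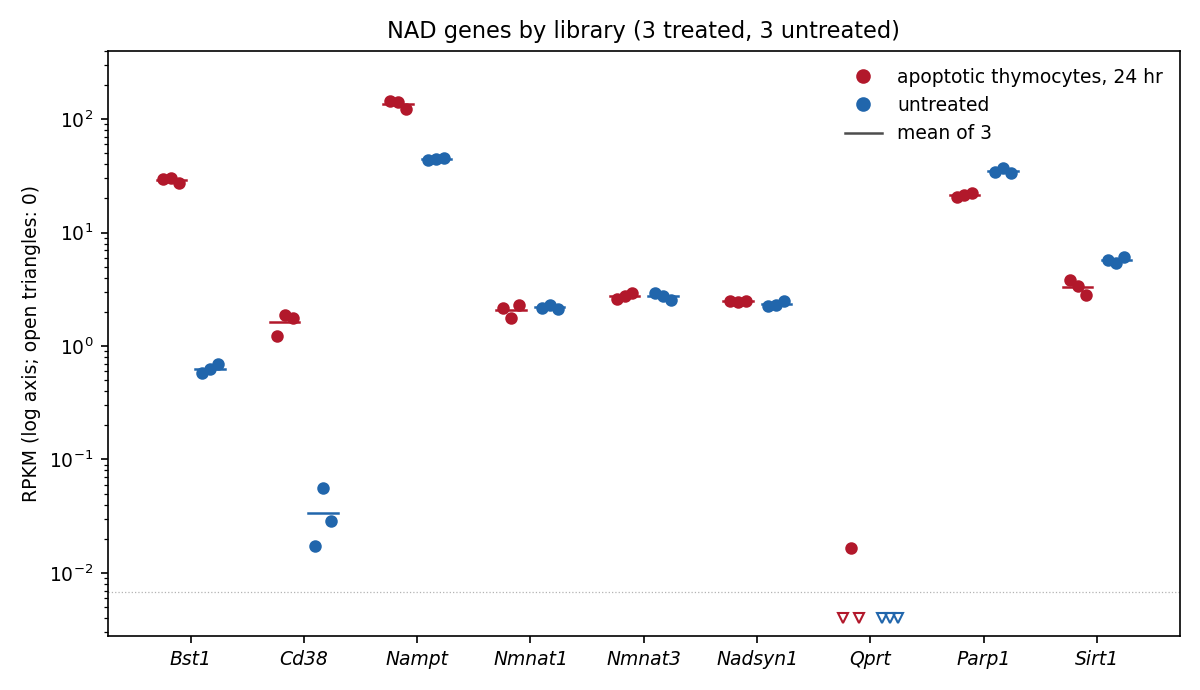
RPKM (log axis) of the 9 NAD genes in each of the 3 treated (red) and 3 untreated (blue) libraries; short lines are means, and open triangles are values of 0. Bst1, Cd38 and Nampt stand higher in treated libraries, Parp1 and Sirt1 lower, and Nmnat1, Nmnat3 and Nadsyn1 overlap.

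**Figure D2:**
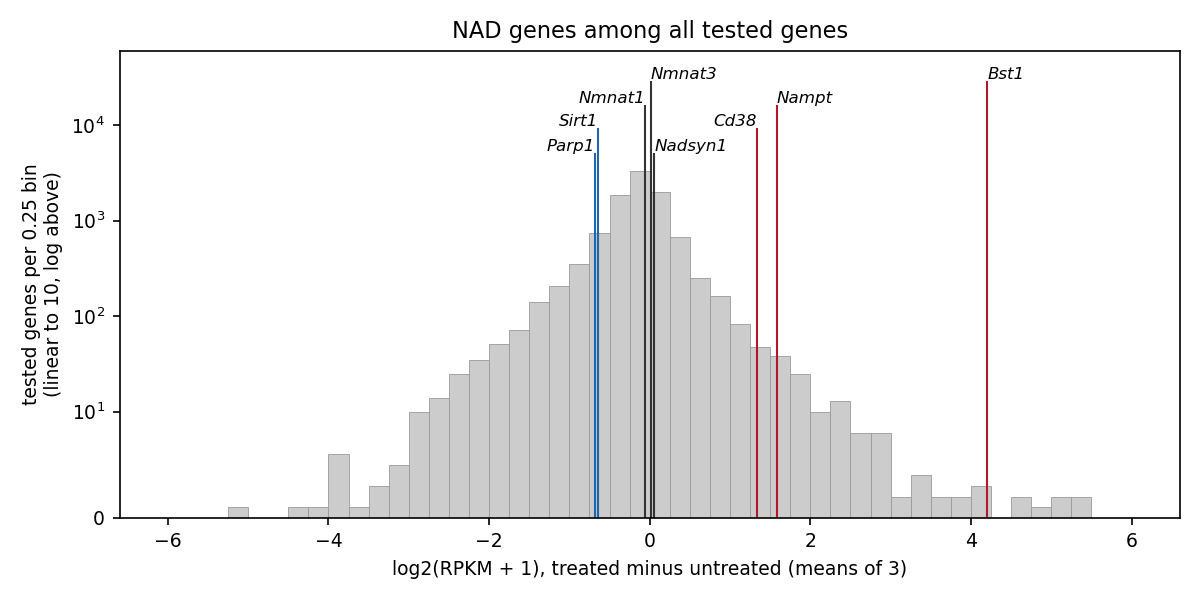
Number of tested genes (linear up to 10, logarithmic above) by log2 difference, treated minus untreated, in bins of 0.25, with vertical lines at the 8 NAD genes past the filter. Bst1 lies in the upper tail at 4.20, and Nmnat1, Nmnat3 and Nadsyn1 lie near the centre.

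Nampt makes nicotinamide mononucleotide from nicotinamide and is the rate-limiting step of NAD salvage. It was the most abundant member in both groups, with 146, 140 and 123 RPKM in treated and 44.0, 44.7 and 45.5 RPKM in untreated macrophages. Every treated library lay well above every untreated one, and the treated libraries spread more among themselves. The means were 136 ± 11.8 RPKM in treated and 44.7 ± 0.775 RPKM in untreated macrophages (SD, n = 3 each), a ratio of 3.05 and a log2 difference of 1.58 (SE 0.062). Pooled reads numbered 44882 in treated and 13494 in untreated libraries, and the depth-corrected ratio was 3.05 with an exact 95% interval of 2.99 to 3.11 that covers counting error only. By log2 difference Nampt ranked 110 of 10173 tested genes, and by level it ranked 312 in treated and 1079 in untreated macrophages. The gene lies at chr12:32820335-32853369 on the plus strand, and none of its 75-base transcript stretches is shared with another gene.

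The enzymes Nmnat1 and Nmnat3 turn nicotinamide mononucleotide into NAD, Nmnat1 in the nucleus and Nmnat3 in mitochondria. Nmnat1 had 2.16, 1.78 and 2.29 RPKM in treated and 2.15, 2.31 and 2.13 RPKM in untreated macrophages. Nmnat3 had 2.60, 2.76 and 2.94 RPKM in treated and 2.91, 2.76 and 2.54 RPKM in untreated macrophages. For both genes the groups overlapped, with the lowest Nmnat1 value in treated replicate 2. The log2 differences were −0.06 (SE 0.073) for Nmnat1 and 0.01 (SE 0.062) for Nmnat3, and under both other scalings Nmnat1 became positive at 0.06. Their pooled-read ratios were 0.946 (0.829 to 1.08) and 1.01 (0.926 to 1.11), again with intervals for counting error only. The Nmnat1 locus is chr4:149467572-149485202 on the minus strand, and 3.78% of its 75-base transcript stretches occur in other genes, the highest share among the members by this measure. Nmnat3 is at chr9:98287435-98420527 on the plus strand.

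Nadsyn1, NAD synthetase, amidates nicotinic acid adenine dinucleotide in the last step of the routes that start from tryptophan or nicotinic acid. It had 2.50, 2.44 and 2.48 RPKM in treated and 2.24, 2.32 and 2.48 RPKM in untreated macrophages. The treated libraries were tightly grouped and the highest untreated library reached into them. The log2 difference was 0.05 (SE 0.054). Relative to the median gene it was 0.19, and under median-of-ratios and upper-quartile scaling it was 0.18. The gene lies at chr7:143795584-143822849 on the minus strand.

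Qprt, quinolinate phosphoribosyltransferase, turns quinolinic acid, the product of the tryptophan route, into the first mononucleotide of NAD synthesis. It was at or near 0: treated replicate 2 had 0.0166 RPKM, which is 1 read, and the other 5 libraries had 0. A count of 0 in a library allows up to 0.0437 RPKM in treated replicate 1, 0.0482 RPKM in treated replicate 3 and 0.0474 to 0.0587 RPKM in untreated macrophages (3 reads). Qprt transcript was therefore not detectable at this depth in either group, and no fold is given. Its locus is chr7:127107114-127122226 on the minus strand. The kynurenine steps upstream of it were also low: none of the 8 listed genes reached the level needed for testing. The gene of that list with the highest level in both groups was Afmid, a formamidase, with 0.774, 0.719 and 0.660 RPKM in treated and 0.819, 0.922 and 0.882 RPKM in untreated macrophages.

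Bst1 encodes a cell-surface ectoenzyme of the ADP-ribosyl cyclase family that acts on NAD and related nucleotides and was first described on bone marrow stromal cells. It had 29.7, 30.0 and 27.5 RPKM in treated and 0.578, 0.622 and 0.699 RPKM in untreated macrophages. The 3 treated libraries were close to one another, and all 3 untreated libraries were below 1 RPKM. The means were 29.1 ± 1.38 RPKM in treated and 0.633 ± 0.0612 RPKM in untreated macrophages (SD, n = 3 each), a ratio of 45.9. The log2 difference was 4.20 (SE 0.056), and with a pseudocount of 0.1 it was 5.32. Reads numbered 1865, 1655 and 1567 in treated and 27, 36 and 39 in untreated libraries, a pooled ratio of 45.7 (37.6 to 56.2, counting error only). In the order of log2 differences Bst1 ranked 9 of 10173, and by level it ranked 1667 in treated and 10108 in untreated macrophages, the low rank following from a filter it passed through the treated libraries alone.

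Cd38 encodes the other ectoenzyme of the pair, an NAD glycohydrolase that also forms cyclic ADP-ribose, a calcium-mobilising messenger. It had 1.23, 1.86 and 1.76 RPKM in treated and 0.0172, 0.0555 and 0.0288 RPKM in untreated macrophages. All treated values lay above all untreated values, but even the highest was far under Bst1. The means were 1.62 ± 0.341 RPKM in treated and 0.0338 ± 0.0197 RPKM in untreated macrophages (SD, n = 3 each). Reads numbered 96, 128 and 125 in treated and 1, 4 and 2 in untreated libraries, so the pooled ratio of 45.7 has a wide interval of 22.0 to 115. The log2 difference of 1.33 (SE 0.095) rests on the pseudocount, as it was 3.67 with 0.1 in place of 1. The pooled-read ratios of Bst1 and Cd38 were both estimated at 45.7. That of Cd38 rests on 7 untreated reads, and its interval is too wide to call the ratios equal. Within the treated libraries the level of Bst1 was 24.2, 16.1 and 15.6 times that of Cd38.

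Bst1 and Cd38 are neighbours on chromosome 5, Bst1 at chr5:43818886-43843247 and Cd38 at chr5:43868809-43912375, both on the plus strand and 25.6 kb apart. Their transcripts have 0 stretches of 75 bases in common. Fbxl5, an F-box gene of iron homeostasis on the opposite strand, overlaps Bst1 by 98 bp of exon. It had 17.4, 16.9 and 15.6 RPKM in treated and 4.42, 4.13 and 4.23 RPKM in untreated macrophages, with no overlap between the groups (log2 difference 1.74, limma adjusted p = 1.08e-08). Genes beside the pair were taken only where a library had a read on them, so genes without reads may lie nearer. The other 3 nearest such genes on that side began at −584 to −157 kb from the start of Bst1. Of these, Cc2d2a averaged 0.265 RPKM in treated and 0.377 RPKM in untreated macrophages and was too low to be tested, as were C1qtnf7 and Gm7854. The 4 nearest such genes on the side of Cd38 began 175 to 1615 kb after the start of Bst1. Among them Tapt1, at 356 kb, averaged 12.2 RPKM in treated and 7.72 RPKM in untreated macrophages (log2 difference 0.60, limma adjusted p = 5.56e-05). Qdpr averaged 33.4 RPKM in treated and 35.6 RPKM in untreated macrophages and did not pass (log2 difference −0.09, limma adjusted p = 0.0917), and Prom1 and Ldb2 were too low to be tested. The neighbours were looked at after the values of Bst1 were known. Bst1 and Fbxl5 share 24 such stretches, 0.709% of those of Bst1. Whether strand was used in counting is not given in the sources used here, so reads within the overlap cannot be told apart.

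Markers of other cells that can express Bst1 or Cd38 are given beside these values. Of the 8 listed neutrophil markers, 5 had a treated range above the untreated one, most of them too low to be tested. Over all tested genes the treated range lay above in 20.4% and below in 49.1%, but those shares are not for a like set, as they leave out genes too low to be tested. Among the low markers Elane had 1, 1 and 5 reads and Cxcr2 1, 3 and 2 reads in treated libraries, with 0 in each untreated library. Mpo overlapped between the groups and Ly6g was at 0 in every library. The list summed to 16.5 to 18.1 RPKM in treated and 16.2 to 16.6 RPKM in untreated macrophages, mostly Csf3r, which macrophages also express. The treated range of Csf3r lay below the untreated one, with means of 13.3 RPKM in treated and 16.2 RPKM in untreated macrophages. Within that list Camp, a granule peptide gene, had 0.770, 0.657 and 0.848 RPKM in treated and 0, 0 and 0.0721 RPKM in untreated macrophages. Ngp, another granule gene, had 2.95, 2.71 and 2.79 RPKM in treated and 0.128, 0.309 and 0.107 RPKM in untreated macrophages. The B cell list summed to 11.2 to 12.1 RPKM in treated and 21.6 to 22.3 RPKM in untreated macrophages, mostly Blnk, with Pax5 at 0 in every library. The stromal cell list summed to 1.78 to 2.10 RPKM in treated and 2.61 to 2.95 RPKM in untreated macrophages. The part of these cells in the Bst1 and Cd38 values was not tested. The 5 genes whose log2(RPKM + 1) profile over the 6 libraries lay nearest to that of Bst1 by Euclidean distance were Ednrb (0.984), Slc7a11 (1.30), Hp (1.37), Marco (1.45) and Amica1 (1.60). A small distance requires levels like those of Bst1 in both groups, so these genes had to be higher in treated libraries. Ednrb, Hp and Amica1 also passed the filter through the treated libraries alone. Their group means describe the choice and are no separate result. Ednrb averaged 19.4 RPKM in treated and 0.648 RPKM in untreated macrophages, and Marco 50.1 RPKM in treated and 1.02 RPKM in untreated macrophages.

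Parp1, poly(ADP-ribose) polymerase, consumes NAD when it marks damaged DNA and chromatin proteins. It had 20.7, 21.3 and 22.2 RPKM in treated and 34.4, 36.8 and 33.7 RPKM in untreated macrophages, with every treated library under every untreated one. The means were 21.4 ± 0.755 RPKM in treated and 35.0 ± 1.65 RPKM in untreated macrophages (SD, n = 3 each), which puts treated cells at 61.2% of the untreated level. The log2 difference was −0.68 (SE 0.049), or −0.55 relative to the median gene, and it was −0.52 under median-of-ratios scaling. The gene lies at chr1:180568955-180601253 on the plus strand.

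Sirt1 is a nuclear deacylase that uses NAD as co-substrate and so links gene regulation to NAD supply. It had 3.78, 3.38 and 2.80 RPKM in treated and 5.74, 5.36 and 6.09 RPKM in untreated macrophages. All treated libraries lay under all untreated ones, with the lowest in treated replicate 3. The means were 3.32 ± 0.497 RPKM in treated and 5.73 ± 0.366 RPKM in untreated macrophages (SD, n = 3 each), 58.0% of the untreated level, and the log2 difference was −0.64 (SE 0.086). Relative to the median gene it was −0.51. The gene lies at chr10:63319005-63381704 on the minus strand and overlaps the antisense gene Gm16145 by 65 bp of exon, for which every library had 0 RPKM.

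The order of levels differed between the groups mainly through Bst1. In treated macrophages the order was Nampt, Bst1, Parp1, Sirt1, Nmnat3, Nadsyn1, Nmnat1, Cd38 and Qprt, where Sirt1 and Nmnat3 overlapped in range, as did Nmnat1 and Cd38. In untreated macrophages it was Nampt, Parp1, Sirt1, Nmnat3, Nadsyn1, Nmnat1, Bst1, Cd38 and Qprt, where Nadsyn1 and Nmnat1 overlapped. The 9 genes together summed to 208, 204 and 185 RPKM in treated and 91.99, 94.95 and 93.1 RPKM in untreated libraries. Nampt made up 69.9%, 68.8% and 66.5% of that sum in treated and 47.8%, 47.1% and 48.9% in untreated libraries. Bst1 made up 14.3%, 14.7% and 14.9% in treated and 0.628%, 0.656% and 0.7505% in untreated libraries. Parp1 made up 9.95%, 10.4% and 12.0% in treated and 37.4%, 38.8% and 36.1% in untreated libraries. The ratio of Nampt to Parp1, a salvage enzyme over a consumer, was 7.03, 6.60 and 5.54 in treated and 1.28, 1.21 and 1.35 in untreated libraries. Each of these shares and ratios separates the groups without overlap, and the genes were chosen in this contrast. The ratio had to separate them, since every treated library lay above the untreated ones for Nampt and below them for Parp1. The shares are parts of a sum that was larger in treated libraries, mainly through Nampt and Bst1. A gene at an unchanged level therefore took a smaller share there. The level of Parp1 itself in treated macrophages was 61.2% of the untreated level.

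**Figure D3:**
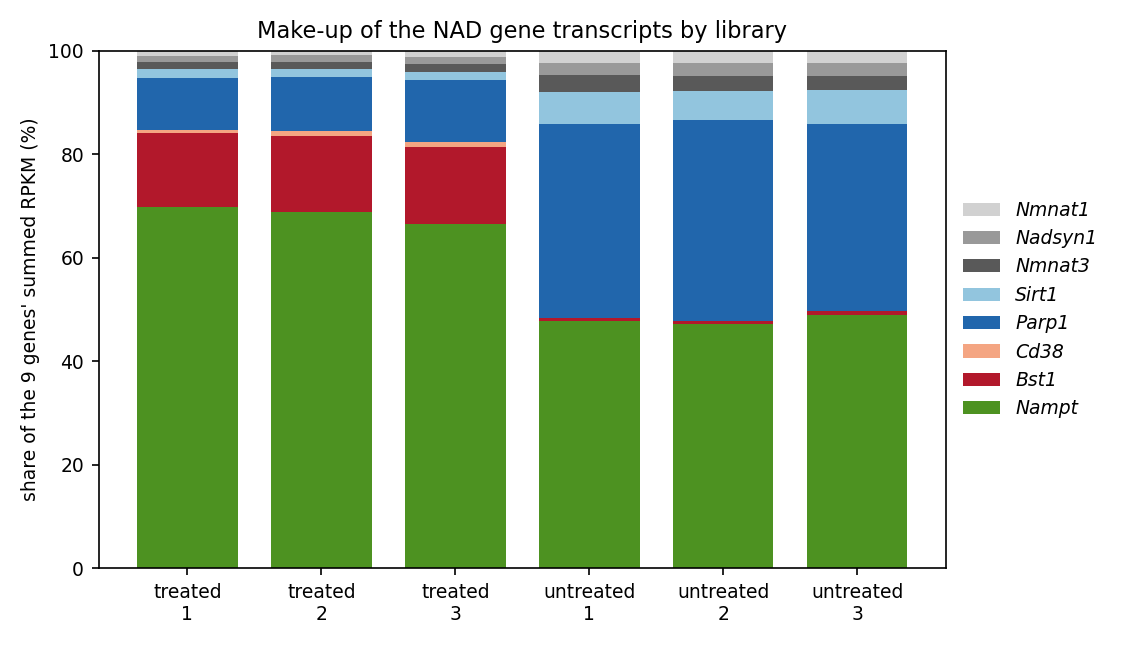
Share of the summed RPKM of the 9 NAD genes taken by each gene, in each of 3 treated (left) and 3 untreated (right) libraries; Qprt, at or near 0, is not drawn. Nampt, Bst1 and Cd38 fill more of the treated bars. Every other gene drawn fills more of the untreated bars, also Nmnat1, Nmnat3 and Nadsyn1, whose levels overlapped between the groups.

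Beyond the members, 66 further genes of NAD metabolism were listed by role. Of these 65 were in the table and 37 could be tested. Among the 37 there were 7 that rose, 16 that fell and 14 that missed the threshold, with a median log2 difference of −0.115, against backgrounds of 18.8% higher and 46.0% lower and a median of −0.13 over all tested genes. The split depended on scaling: with median-of-ratios scaling 16 were higher and 8 lower, and with upper-quartile scaling 16 and 7. Without treated replicate 3 the number higher was 11. The log2 differences of the tested genes are plotted by role.

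**Figure D4:**
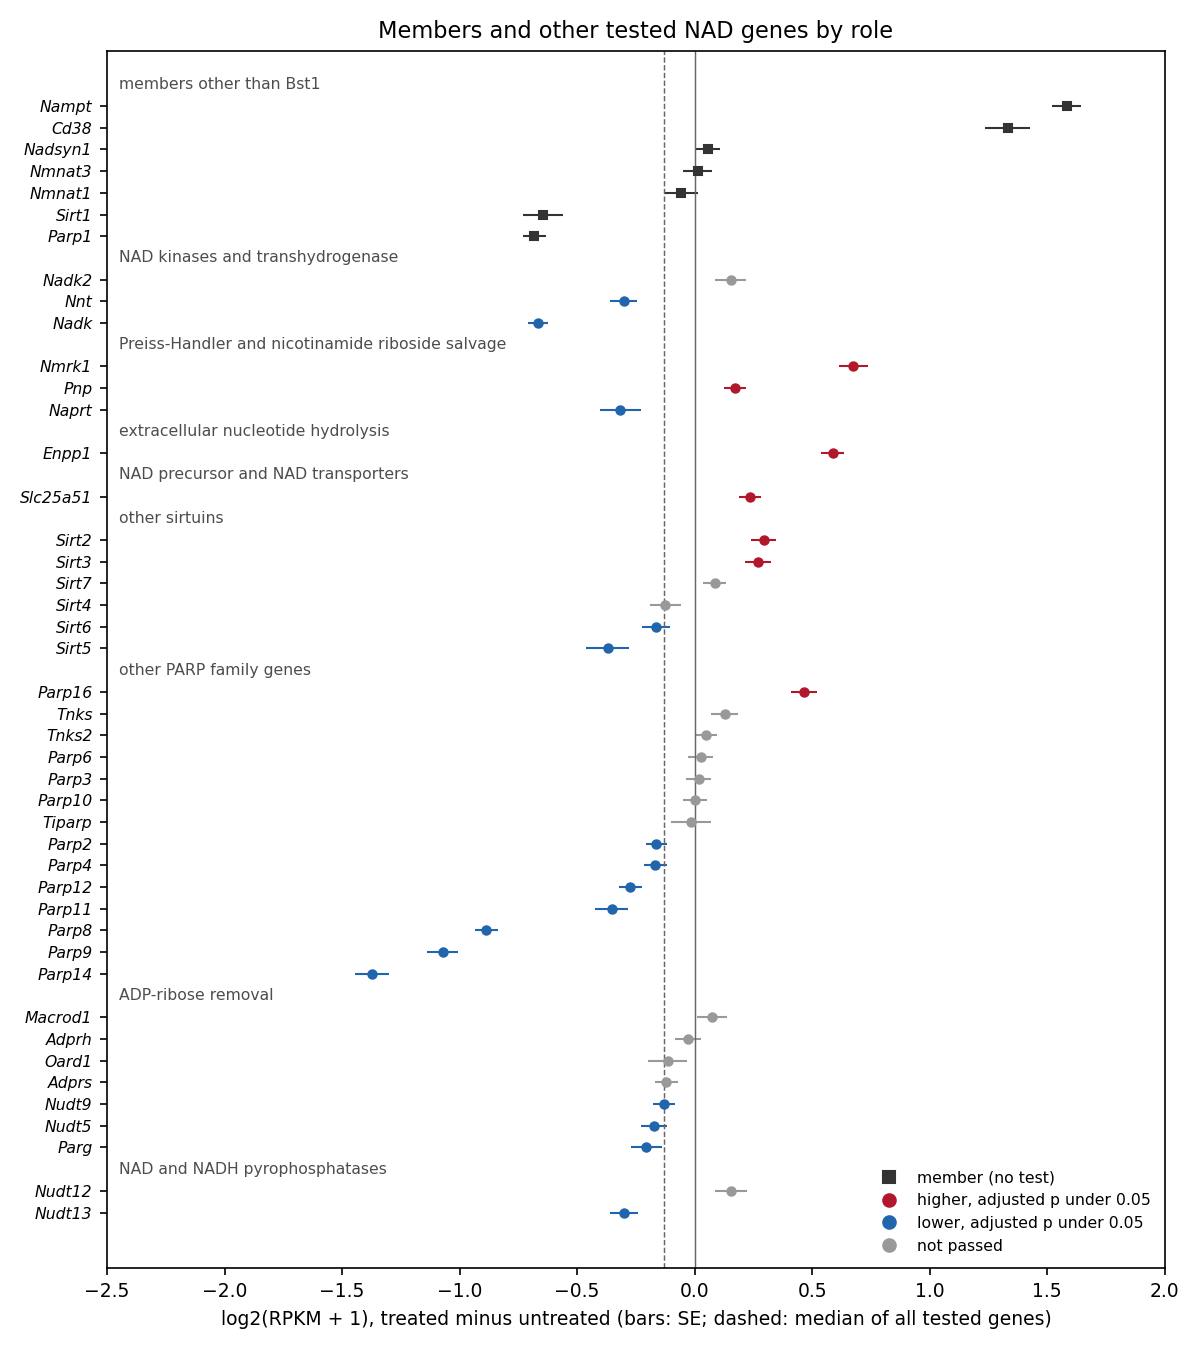
Log2 differences of RPKM + 1, treated minus untreated, with SE bars, for the 7 members past the filter other than Bst1 (black squares, no test) and 37 further NAD genes grouped by role (red higher, blue lower, grey not passed). The dashed line is the median of all tested genes, and Parp14, Parp9 and Parp8 lie furthest to the left among the further genes.

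Salvage from other precursors was tested for 3 of its 5 genes. Nmrk1, the nicotinamide riboside kinase, rose, with 4.43, 4.33 and 3.94 RPKM in treated and 2.45, 2.24 and 2.15 RPKM in untreated macrophages (log2 difference 0.67, SE 0.062, limma adjusted p = 1.27e-05). Pnp, purine nucleoside phosphorylase, which can free nicotinamide from its riboside, averaged 51.7 ± 2.64 RPKM in treated and 45.7 ± 0.352 RPKM in untreated macrophages (SD, n = 3 each; log2 difference 0.17, limma adjusted p = 0.0106). It did not pass without treated replicate 2 (limma adjusted p = 0.0506). Naprt, which takes nicotinic acid into NAD, was lower at a log2 difference of −0.32 (limma adjusted p = 0.0105). It did not pass under median-of-ratios scaling (limma adjusted p = 0.0569) or upper-quartile scaling (limma adjusted p = 0.0584). Slc25a51, the mitochondrial NAD carrier, listed in the table as Mcart1, rose by 0.24 (limma adjusted p = 0.00172). Enpp1, an ectoenzyme that hydrolyses nucleotides outside the cell, rose by 0.59, with 4.99, 5.09 and 5.29 RPKM in treated and 3.09, 3.03 and 3.11 RPKM in untreated macrophages (limma adjusted p = 7.09e-06). Aox1, which oxidises N-methylnicotinamide, was not tested, with 0.599, 0.591 and 0.513 RPKM in treated and 0.0536, 0.0337 and 0.0299 RPKM in untreated macrophages. Nnmt, the other gene listed for nicotinamide clearance, was not tested either. It overlapped between the groups, with means of 0.0522 RPKM in treated and 0.0573 RPKM in untreated macrophages.

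Of the 3 genes for NAD kinases and the transhydrogenase, 2 fell, beside 46.0% of all tested genes. Nadk, which phosphorylates NAD to NADP in the cytosol, had 30.7, 32.4 and 32.7 RPKM in treated and 51.1, 52.2 and 50.4 RPKM in untreated macrophages (log2 difference −0.67, SE 0.043, limma adjusted p = 1.10e-06). Nnt, the mitochondrial transhydrogenase, was lower at −0.30 (limma adjusted p = 0.00156), a call lost under upper-quartile scaling (limma adjusted p = 0.0523). Nadk2, the mitochondrial kinase, did not pass at 0.15 (limma adjusted p = 0.0640), and passed as higher under both other scalings and without treated replicate 3 (limma adjusted p = 0.0196).

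Among the other consumers, the PARP family had 14 tested genes, of which 1 rose, 7 fell and 6 did not pass, beside 18.8% of all tested genes higher and 46.0% lower. Parp14, Parp9 and Parp8 had the largest falls of the family in this fit. Parp14, a mono-ADP-ribosyltransferase linked to interferon and interleukin responses, had 9.35, 8.59 and 7.39 RPKM in treated and 23.6, 23.0 and 23.6 RPKM in untreated macrophages (log2 difference −1.37, SE 0.072, limma adjusted p = 2.78e-07). Parp9, its partner in interferon signalling, had 5.42, 4.74 and 4.43 RPKM in treated and 10.9, 11.5 and 11.5 RPKM in untreated macrophages (log2 difference −1.07, limma adjusted p = 8.92e-07). Parp8 averaged 3.66 ± 0.140 RPKM in treated and 7.62 ± 0.0806 RPKM in untreated macrophages (SD, n = 3 each; log2 difference −0.89, limma adjusted p = 3.65e-07). Parp16, an enzyme of the endoplasmic reticulum, was the 1 that rose (log2 difference 0.47, limma adjusted p = 8.20e-05). Parp2, the closest relative of Parp1 among DNA-damage responders, was lower at −0.16 (limma adjusted p = 0.0119), but under upper-quartile scaling its difference was 0.0007 and under median of ratios it did not pass.

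Of the other 6 sirtuins, 2 were higher, 2 lower and 2 not passed, beside the same 18.8% and 46.0% over all tested genes. Sirt2, the cytosolic deacetylase, had 39.7, 43.9 and 44.6 RPKM in treated and 34.7, 33.8 and 35.6 RPKM in untreated macrophages, a rise of 0.29 (limma adjusted p = 0.00105). Sirt3, the mitochondrial deacetylase, rose by 0.27 (limma adjusted p = 0.00204), and Sirt5, the mitochondrial desuccinylase, fell by 0.37 (limma adjusted p = 0.00657). Sirt6, a chromatin deacylase, was lower at −0.16 (limma adjusted p = 0.0372), and it did not pass under either other scaling, with no filter (limma adjusted p = 0.0783), or without treated replicate 2 or 3 or untreated replicate 2 or 3 (limma adjusted p 0.0552 to 0.147 without 1 library).

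Genes that remove ADP-ribose showed 3 lower and 4 not passed of 7 tested, beside 46.0% of all tested genes lower. Parg, the main poly(ADP-ribose) glycohydrolase, was lower at −0.21 (limma adjusted p = 0.0240). The ADP-ribose hydrolases Nudt5 and Nudt9 were lower at −0.17 and −0.13 (limma adjusted p = 0.0227 and 0.0336). None of the 3 passed under either other scaling, under which Nudt9 was at 0.03. Parg did not pass with no filter (limma adjusted p = 0.0595), nor without treated replicate 2 or 3 or untreated replicate 2 or 3 (limma adjusted p 0.0565 to 0.0867). Nudt5 did not pass without treated replicate 2 or untreated replicate 1 or 3 (0.0625 to 0.0980). Nudt9 did not pass without treated replicate 1 or any 1 untreated replicate (0.0764 to 0.108). Adprh, which frees arginine from ADP-ribose, averaged 39.2 ± 2.74 RPKM in treated and 39.9 ± 0.875 RPKM in untreated macrophages (SD, n = 3 each; log2 difference −0.03, but 0.14 under both other scalings). Nudt13, a mitochondrial NADH pyrophosphatase, was lower at −0.30 (limma adjusted p = 0.00204), and Nudt12, a peroxisomal NADH pyrophosphatase, did not pass at 0.15 (limma adjusted p = 0.0740) but did under both other scalings and without treated replicate 3 (limma adjusted p = 0.0308). Ectoenzymes that transfer ADP-ribose from NAD to surface proteins, with Sarm1, were too low to be tested in all 6 genes found, and Art1, Art2b and Art4 were at 0 in every library. The listed channels gated by cyclic ADP-ribose or ADP-ribose were also below the testing level, Trpm2 being the highest with 0.776, 0.645 and 0.662 RPKM in treated and 0.504, 0.509 and 0.521 RPKM in untreated macrophages.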

How the data were processed

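The authors deposited RPKM for 38124 genes in 6 libraries, per the file headers, with mouse GRCm38 (mm10) as the build named in the labels. Which aligner and counting program were used, and whether strand was, is not given in the sources used here. Each column name matched 1 sample title, and 0 columns belonged to no sample. Depths were set first, from the commonest value that 1 read would give over genes of known GENCODE M21 length. With these depths RPKM could be turned back into whole reads (within 0.001 reads) for all 18737 genes above 0. Of these, 9371 fitted the exon union of their GENCODE M21 model. The rest were given the shortest length found by search, so their reads may be too few by a common factor.

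The deposited RPKM values are not counts, so limma 3.58.1 in R 4.3.3 was fitted on log2(RPKM + 1) with an intensity trend, to genes of at least 1 RPKM in at least 3 of the 6 libraries, with Benjamini-Hochberg adjustment over all 10173 of them. The members, lists and tests were chosen with earlier results of these data known. The genes set to be named were all members, in each list up to 4 tested genes with the smallest p and those with the highest mean in either group, the 5 genes nearest to Bst1 (excluding predicted and clone names), and in each marker list the 3 with the highest mean in treated cells. Not all of them are printed, Lat, Cd2, Cd79a and Dcn being among those left out. Other genes of the lists, such as Elane, Mpo and Kynu, are given outside these rules. The neighbours of Bst1 were added after values were seen. Whether replicate numbers pair the samples is not settled here. Correlations of deviations were 0.20, −0.03 and −0.16 for equal numbers and −0.32 to 0.33 for unequal ones, a spread that cannot decide it. Within groups, libraries correlated at 0.994 to 0.998 across genes and differed by more than counting noise. Alternatives were other pseudocounts, filters and scalings, a replicate block and leaving out each library, with the filter kept as set on all 6. Sequences are from RefSeq.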

Additional observations from a re-analysis of the deposited data

How the results depend on the processing

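No call is made on the members, whose contrast chose them. A filter of 5 RPKM kept 4 of them, dropping Cd38, Nmnat1, Nmnat3 and Nadsyn1. The scaling set how all genes divided: 3235 were higher and 2836 lower with median-of-ratios scaling and 3280 and 2814 with upper-quartile scaling, against 1915 and 4679 with the deposited RPKM. The further NAD genes had 16 higher with either scaling and 8 or 7 lower, against 7 and 16. With a filter of 5 RPKM they had 4 higher and 10 lower of 25 tested, fewer being testable. Leaving out 1 library at a time gave 6 to 11 higher, with 11 without treated replicate 3. Signs reversed for Parp2 (0.0007 under upper-quartile scaling) and Nudt9 (0.0306 under median-of-ratios and 0.0338 under upper-quartile scaling). Further genes that had not passed also changed sign: under the median-of-ratios and upper-quartile scalings Adprh was at 0.1392 and 0.1425, and Adprs at 0.0335 and 0.0365. The differences of the members Nmnat1 and Nmnat3, given without a call, changed sign too. Nmnat1 was at 0.058 and 0.0603 under the same scalings. Nmnat1 was at 0.0134 without treated replicate 2 and Adprh at 0.0306 without treated replicate 1, while Nmnat3 was at −0.0203 without treated replicate 3 and −0.0258 without untreated replicate 3. Of 24 named further genes, 14 kept their call throughout and 10 changed. The replicate block, in samples whose pairing by number is not settled, gave 1904 genes higher and 4627 lower, and Sirt6 did not pass under it (limma adjusted p = 0.0576). Depth limits Qprt and the untreated Cd38, which had 1 to 4 reads per library.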

Other observations

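Among genes too low to be tested, Kynu, the kynureninase of the tryptophan route, had 0.495, 0.4997 and 0.428 RPKM in treated and 0.177, 0.184 and 0.183 RPKM in untreated macrophages, with no overlap. It was chosen after its values were seen, and 79, 70 and 62 reads in treated and 21, 27 and 26 reads in untreated libraries lie behind it. Elane, a neutrophil granule protease of the marker list, had 1, 1 and 5 reads in treated and 0 in each untreated library.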
